A study of Heterocephalus glaber and Mus musculus with 6 samples.

Results

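The genes described here build and fire the DNA replication machinery: the origin recognition complex (Orc), the licensing factors Cdc6 and Cdt1 with their inhibitor geminin (Gmnn), the MCM family, the GINS subunits, Cdc45 and Cdc7, the replicative polymerases alpha, delta and epsilon with primase, the sliding clamp Pcna and its loader (Rfc), the flap nuclease Fen1, and the fork protection pair Timeless and Tipin. They were chosen by symbol pattern in the mouse annotation (GENCODE release M21, GRCm38), which gave 45 genes. The pattern uses no measured values, but earlier results of these data were known when it was chosen. Of the 45, 20 (44.4%) were among the 42319 named mouse genes with an entry under their own Ensembl identifier, and these 20 also passed the minimum of a mean of 10 counts. The other 25 were not analysed here: Orc1, Orc3, Orc4, Orc5, Orc6, Cdt1, Mcm2, Mcm3, Mcm4, Mcm5, Mcm6, Mcm7, Cdc45, Gins2, Gins4, Prim1, Pole2, Pole3, Pole4, Pcna, Rfc2, Rfc3, Rfc4, Rfc5 and Fen1. This says nothing of their expression, since many counts lie in assembled loci that carry no gene name.

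Replication is prepared in G1, when the origin recognition complex with Cdc6 and Cdt1 loads the MCM helicase onto origins. The kinase Cdc7 then fires licensed origins as Cdc45 and GINS join the helicase, polymerase alpha with primase lays down primers, and polymerases delta and epsilon extend the lagging and leading strands. In the epidermis, DNA synthesis takes place mainly in basal keratinocytes, and many of these genes are known targets of E2F transcription factors.

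The values come from 3 libraries of epidermal keratinocytes from dorsal skin of FVB mice 7 to 8 weeks old, with no treatment or altered gene named in the labels, sorted with an antibody to CD49f, an integrin subunit found on basal keratinocytes, and sequenced after removal of ribosomal RNA. The series also holds 3 naked mole-rat libraries, whose identifiers could not be matched to these genes. All 3 mouse libraries form 1 group and no label divides them, so no test between groups was possible and every difference between libraries below is a description. The labels do not say whether the libraries came from separate animals.

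Library totals lay between 52499080 and 53465434 counts, and entries with an Ensembl identifier held 10.6% to 11.5% of them; the rest lay in the unnamed loci. Of 10 basal keratinocyte markers, among them Krt5, Krt14, Itga6 and Trp63, none was analysed here, so the sorted cell type could not be checked from them. Of 10 suprabasal keratinocyte markers, only Krt2 was analysed here, with 111, 173 and 129 counts in libraries 1, 2 and 3. Genes listed as markers of other cells ran from 0 counts to those of Foxn1, listed as a hair follicle gene. Its 1490, 1731 and 2201 counts in libraries 1, 2 and 3 exceeded those of most of the 20 genes. The follicle markers Lgr5 and Hoxc13 had only 36, 59 and 9 and 35, 51 and 22 counts. The part of follicle cells in the Foxn1 counts was not tested. Cdh5, Kdr and Emcn of endothelial cells, Pdgfrb and Lum of fibroblasts, Tyr and Mlana of melanocytes and all 5 Merkel cell markers had 0 counts in each library. Others on these lists were detected. The endothelial markers Flt1 and Pecam1 had 129, 105 and 63 and 10, 14 and 11 counts, and the leukocyte marker Ptprc 24, 41 and 48. Dcn of fibroblasts had 26, 31 and 29, and Dct and Kit of melanocytes 15, 13 and 17 and 12, 45 and 18. Pdgfra, Tek and Tyrp1 had counts in only some libraries, 13 at most. The Y-linked gene Ddx3y had 3483, 0 and 0 counts, which sets library 1 apart: its RNA was not the same as that of libraries 2 and 3.

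The 3 catalytic subunits of the replicative polymerases, Pola1, Pold1 and Pole, belong to polymerase family B and share a catalytic motif whose codons for aspartate, threonine and aspartate are shown in capitals, since these are the enzymes that carry out the synthesis. The runs are 45 bases of GENCODE M21 coding sequence, each on the strand of its gene.
Pola1: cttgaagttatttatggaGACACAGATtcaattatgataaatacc
Pold1: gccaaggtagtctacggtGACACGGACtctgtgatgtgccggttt
Pole: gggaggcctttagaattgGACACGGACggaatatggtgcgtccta
The Pola1 run lies in exon 28 of 37 (chrX:93492761-93492805, minus strand, GRCm38). The Pold1 run crosses an intron within chr7:44535798-44535936 (minus strand) and its motif begins in exon 19 of 27, and the Pole run crosses an intron within chr5:110303666-110303897 (plus strand) with its motif beginning in exon 23 of 49. The motif, GAC or GAT followed by ACN and GAC or GAT in the reading frame of the gene's own strand, occurred 1 time in each of the 3 coding sequences, and in 1402 of 21584 mouse genes (6.5%) at any place in the longest coding sequence. A match is a description of the sequence only.

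Polymerase alpha with primase starts every new strand. All 3 of its measured subunits were lowest in library 3 and highest in library 2, where 47.6% and 37.6% of all measured genes were. Pola1, the catalytic subunit (ENSMUSG00000006678, chromosome X, 93304767 to 93632155), had 46.9, 54.5 and 39.5 CPM in libraries 1, 2 and 3, where CPM is the count per 1000000 counts of a library. Pola2, the accessory subunit, had 20.2, 22.1 and 18.1 CPM, and Prim2, the large subunit of primase, 16.9, 17.6 and 13.3 CPM. The library 3 level was 0.726 times that of library 2 for Pola1, 0.817 times for Pola2 and 0.754 times for Prim2. Levels per kilobase of exon allow for the annotated length of each gene, but depend on the length taken. On this scale Pola1 had 5.33 ± 0.848 CPM per kilobase, Prim2 2.68 ± 0.392 and Pola2 2.43 ± 0.244 (SD, n = 3 each). The level of Pola2 was thus below that of Pola1 in every library, at 0.457, 0.432 and 0.486 times. The length taken bears on this, since the annotated exons of Pola2 cover 8294 bases and its longest transcript 2878. With the longest transcript as the length, Pola2 had 6.99, Prim2 6.51 and Pola1 8.78 CPM per kilobase.

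Polymerase delta was the 1 complex with all 4 subunits measured, and its subunits did not vary together between libraries. The catalytic subunit Pold1 (ENSMUSG00000038644, chromosome 7, 44532746 to 44548849) had 37.8, 36.8 and 32.4 CPM in libraries 1, 2 and 3, lowest in library 3. Pold3, an accessory subunit, had 26.8, 29.6 and 24.8 CPM and was also lowest there. Pold2, the subunit that joins the catalytic and accessory subunits, had 13.3, 16.6 and 14.5 CPM, lowest in library 1. Pold4, the smallest subunit, had 5.52, 5.95 and 6.32 CPM and was the only 1 of the 20 genes to be highest in library 3 by CPM. Per kilobase of exon the 4 were close, at 7.34 ± 0.592 for Pold1, 7.81 ± 0.882 for Pold2, 5.88 ± 0.516 for Pold3 and 5.10 ± 0.344 for Pold4 (SD, n = 3 each). The ranges of Pold1 and Pold2 over the libraries overlapped, and both lay above those of Pold3 and Pold4, which overlapped only just. With the longest transcript as the length, Pold1, Pold2, Pold3 and Pold4 had 10.2, 8.99, 8.81 and 6.497 CPM per kilobase, and the ranges of Pold2 and Pold3 overlapped. Pold4 shares 286 bases of exon with another annotated gene on its strand, AC109138.7, which had 0 counts in each library.

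Pole, the catalytic subunit of polymerase epsilon (ENSMUSG00000007080, chromosome 5, 110286306 to 110337474), had 56.0, 55.8 and 39.0 CPM in libraries 1, 2 and 3. Libraries 1 and 2 were nearly alike and library 3 lower, at 0.7002 times library 2, the lowest such ratio of the 20 genes after Gins3. Per kilobase it had 4.50 ± 0.871 CPM (SD, n = 3), which was 0.943, 0.808 and 0.780 times Pola1 in libraries 1, 2 and 3. Pold1 lay above both other catalytic subunits per kilobase of exon in every library, at 1.46, 1.23 and 1.49 times Pola1. With the longest transcript as the length Pole had 7.02 CPM per kilobase, and Pold1 was 1.23, 1.03 and 1.25 times Pola1.

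**Figure D1:**
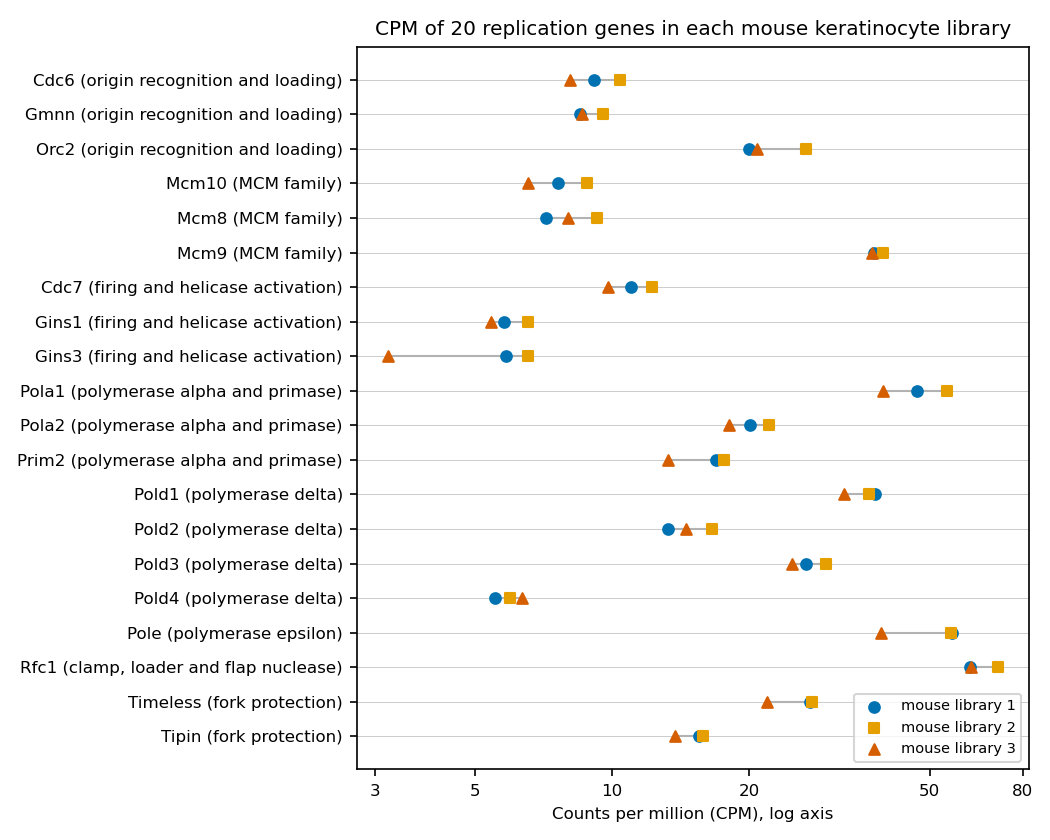
CPM (log axis) of the 20 measured genes in mouse libraries 1 (circles), 2 (squares) and 3 (triangles), grouped by role, with a grey line from the lowest to the highest library. In 17 genes the square is the highest point and in 14 the triangle is the lowest, where 37.6% and 47.6% of all measured genes were. Gins3 has the longest line, from 3.21 CPM in library 3 to 6.53 CPM in library 2.

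Of the origin recognition and loading genes, 3 of 9 were measured, and all 3 were highest in library 2, as were 37.6% of all measured genes. Orc2, an origin recognition subunit (ENSMUSG00000026037, chromosome 1, 58462771 to 58505109), had 19.98, 26.7 and 20.8 CPM in libraries 1, 2 and 3, so library 2 stood above 2 similar libraries. Cdc6, the ATPase that helps to load the MCM helicase, had 9.10, 10.4 and 8.06 CPM. Geminin, which blocks Cdt1 after origins have fired, had 8.48, 9.54 and 8.57 CPM. Geminin was higher than Cdc6 per kilobase, at 6.05 ± 0.401 CPM against 1.76 ± 0.222 for Cdc6 (SD, n = 3 each), or 3.32, 3.28 and 3.79 times in libraries 1, 2 and 3. Orc2 shares 1150 bases, 29.8% of its exon length, with Nif3l1 on the opposite strand, and Nif3l1 had 747, 952 and 838 counts, also most in library 2. The strand setting of the counting is not given in the sources used here, so reads of the 2 genes may not be separated, and the part of Nif3l1 in the Orc2 values was not tested. Cdc6 has a processed pseudogene copy, Gm9430, with an aligned stretch of 1260 bases at 95.2% identity, which had 4, 0 and 2 counts.

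The MCM genes measured were the 3 outside the core helicase, and their levels differed widely. Mcm9 and Mcm8 encode a helicase pair of homologous recombination, and Mcm10 a factor that helps to activate the replicative helicase. Mcm9 had 37.6, 39.4 and 37.2 CPM in libraries 1, 2 and 3, the smallest spread of the 20 genes with a coefficient of variation (SD over mean) of 3.12%. Mcm8 had 7.14, 9.24 and 7.99 CPM, lowest in library 1, and Mcm10 7.60, 8.79 and 6.53 CPM, lowest in library 3. Per kilobase Mcm9 had 4.18 ± 0.130, Mcm8 2.18 ± 0.284 and Mcm10 0.993 ± 0.147 CPM (SD, n = 3 each). Mcm10 was the lowest of the 20 genes on that scale, and its range did not overlap that of any other. With the longest transcript as the length the levels of Mcm9, Mcm8 and Mcm10 were 7.80, 2.39 and 1.57 CPM per kilobase, in the same order, and the range of Mcm10 overlapped those of Cdc6 and Gins3. Mcm9 overlaps Asf1a on the opposite strand over 1748 bases, 19.2% of its exon length, and Asf1a had 1066, 1213 and 1203 counts.

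All 3 measured genes of origin firing and helicase activation were lowest in library 3 and highest in library 2. Of all measured genes, 47.6% were lowest in library 3 and 37.6% highest in library 2. Gins3, a GINS subunit (ENSMUSG00000031669, chromosome 8, 95633453 to 95645060), stood out with 307, 349 and 170 counts in libraries 1, 2 and 3, or 5.85, 6.53 and 3.21 CPM. Its library 3 level was 0.492 times that of library 2, and its coefficient of variation of 33.7% was the highest of the 20 genes, where counting alone would give 6.03%. Gins1, its partner in the same complex, had 304, 349 and 286 counts, or 5.79, 6.53 and 5.399 CPM. Per kilobase the ratio of Gins3 to Gins1 was 0.565 and 0.560 in libraries 1 and 2 and 0.333 in library 3. Cdc7, the kinase that fires origins, had 11.03, 12.2 and 9.78 CPM.

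Rfc1, the large subunit of the clamp loader (ENSMUSG00000029191, chromosome 5, 65261850 to 65335670), was the highest of the 20 genes both by CPM and per kilobase. It had 61.2, 70.7 and 61.6 CPM in libraries 1, 2 and 3, with libraries 1 and 3 nearly alike. At 10.7 ± 0.889 CPM per kilobase (SD, n = 3) it lay above 98.7% of the measured protein-coding genes. That rank covers only genes with an entry, and entries with an Ensembl identifier held 10.6% to 11.5% of all counts. Gapdh had 809, 979 and 828 counts in libraries 1, 2 and 3, fewer than Rfc1 with 3214, 3778 and 3261. Whether an entry holds all reads of its gene was not tested. Of the fork protection pair, Timeless had 27.2, 27.5 and 21.9 CPM and its partner Tipin 15.5, 15.8 and 13.7 CPM. Both were lowest in library 3, as were 47.6% of all measured genes. Per kilobase Tipin was the higher, at 8.04 ± 0.605 against 4.18 ± 0.513 CPM for Timeless (SD, n = 3 each), or 1.86, 1.88 and 2.05 times in libraries 1, 2 and 3. The gap was smaller with the longest transcript as the length, at 8.16 for Tipin and 5.58 CPM per kilobase for Timeless. Both genes were nearly alike in libraries 1 and 2.

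Ordered by level per kilobase of exon, the 20 genes ran from Rfc1 at 10.7 to Mcm10 at 0.993 CPM per kilobase, a 10.8-fold range. Their median was 4.34 CPM per kilobase, beside 2.11 for measured protein-coding genes, and 17 of them lay above the latter value. Both sets hold only genes with an entry, so these are not ranks among all expressed genes. Tipin, Pold2 and Pold1 followed Rfc1, then came Gmnn, Pold3, Orc2, Pola1, Pold4, Pole, Mcm9, Timeless and Gins1, and Prim2, Cdc7, Pola2, Mcm8, Gins3, Cdc6 and Mcm10 were lowest. Of the 19 pairs of neighbours in this order, 15 had ranges over the libraries that overlapped, so that their order was not beyond their spread. The 4 breaks between neighbours lay below Rfc1, below Pold1, below Gins1 and above Mcm10. The break below Pold1 held for every later gene except Orc2, which reached 6.93 CPM per kilobase where the lowest library of Pold1 had 6.67. With the longest transcript as the length the median was 6.75 CPM per kilobase, 17 of the 19 neighbouring pairs overlapped, with breaks below Rfc1 and below Gins1, and Rfc1 stayed first and Mcm10 last, while Orc2 moved from place 7 to 13 and Pola2 from place 16 to 10.

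**Figure D2:**
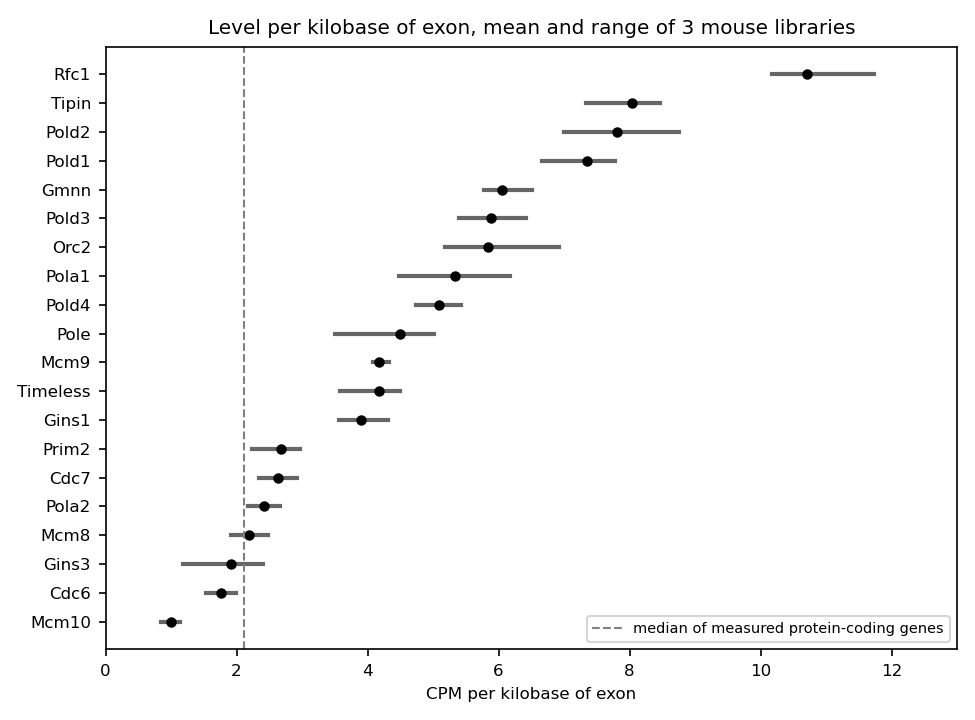
Level per kilobase of exon of the 20 measured genes, as the mean (point) and range (bar) of the 3 mouse libraries, with the median of measured protein-coding genes, 2.11 CPM per kilobase, as a dashed line. Rfc1 stands alone at the top at 10.7 and Mcm10 at the bottom at 0.993, and most neighbours between them have bars that overlap.

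Summed over the 20 genes, the level was 440 CPM in library 1, 482 in library 2 and 393 in library 3, or 438 ± 44.7 CPM (SD, n = 3). Library 2 was the highest of the 3 for 17 of the 20, and for 37.6% of the 9965 measured named genes (39.6% of those with a mean of at least 100 counts). The exceptions were Pold1 and Pole, highest in library 1 as were 38.0% of all measured genes (37.9% at a mean of at least 100 counts), and Pold4, highest in library 3 as were 24.4%. Library 3 was the lowest for 14 of the 20, and for 47.6% of all measured genes (52.1% at a mean of at least 100 counts). Library 1 was the lowest for 6, and for 29.9% of all measured genes (31.4% of protein-coding ones): Orc2, Gmnn, Mcm8, Pold2, Pold4 and Rfc1. None was lowest in library 2, where 22.4% of all measured genes were lowest. The deviation of a library is its log2 CPM less the average over the remaining 2, and its median was −0.0012 in library 1, 0.23 in library 2 and −0.20 in library 3 for the 20 genes, beside 0.047, 0.073 and −0.098 for all measured genes. In bulk libraries such as these, fewer cells of a type and less RNA per cell cannot be told apart.

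Library 3 was lower for named genes as a whole: the median difference in log2 CPM, library 3 minus library 2, was −0.28 for the 20 genes and −0.114 for all measured genes. The trimmed-mean (TMM) scaling of edgeR brought the value for all measured genes to −0.006. With it, the median of the 20 genes was −0.17 for library 3 minus library 2 and 0.13 for library 2 minus library 1, where all measured genes had −0.005 in the second comparison. Of the 20, 15 were then highest in library 2 (29.7% of all measured genes were), 3 highest in library 1 (35.3% were), 2 highest in library 3 (35.0% were) and 13 lowest in library 3 (36.6% were). Under every scaling tried, Cdc6, Cdc7, Gins3, Mcm10, Pola1, Pola2, Pold1, Pold3, Pole, Prim2, Timeless and Tipin were lowest in library 3 and Gmnn, Mcm8, Orc2, Pold2, Pold4 and Rfc1 in library 1. Mcm9 was lowest in library 3 by CPM but in library 1 under the other scalings, and Gins1 changed place likewise under 2 of them. Mcm9 was also highest in library 3 under those scalings, and Timeless was highest in library 1 under TMM and DESeq2 scaling.

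The coefficient of variation ran from 3.12% for Mcm9 to 33.7% for Gins3, with a median of 11.2%, where counting error, itself approximate here, gives a median of 3.49%. Pold4 at 6.75% against 5.64% from counting, Mcm9 at 3.12% against 2.23% and Gmnn at 6.64% against 4.61% were near it. Measured genes with a mean of at least 100 counts had a median of 10.1%, so the spread of the replication genes lay near that of other genes with enough counts. Pole at 19.3%, Orc2 at 16.4% and Pola1 at 15.9% followed Gins3. Without library 3 the median of the 20 was 7.54%.

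The other genes of the pathway were read from 7 lists, whose counts are set beside the shares of all measured genes. By CPM, 47.6% of all measured genes were lowest in library 3, 37.6% highest in library 2 and 38.0% highest in library 1. Under TMM scaling these shares were 36.6%, 29.7% and 35.3% in the same order, and 33.7% were lowest in library 1. Of the 9 measured genes of deoxynucleotide supply, of 15 listed, all except Samhd1 were highest in library 2 and lowest in library 3 by CPM. Under TMM scaling 8 were highest in library 2, 4 lowest in library 3 and 5 lowest in library 1. Summed with Samhd1 the list had 161, 185 and 163 CPM in libraries 1, 2 and 3. Tyms, thymidylate synthase, had 20.3, 22.9 and 18.8 CPM in libraries 1, 2 and 3, Dtymk, thymidylate kinase, 19.9, 23.5 and 18.9, and Dut, the dUTPase, 15.5, 19.7 and 15.4. Dctd, a deaminase that feeds thymidylate synthesis, had 5.18, 5.91 and 4.12 CPM. Samhd1, which degrades deoxynucleotides, ran the other way with 35.9, 39.4 and 44.8 CPM.

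Of 10 measured fork and lagging strand genes, 7 were lowest in library 3 by CPM and 5 under TMM scaling, where 47.6% and 36.6% of all measured genes were. Atad5, which unloads Pcna, had 33.0, 32.9 and 26.8 CPM in libraries 1, 2 and 3, the fork factor Wdhd1 21.96, 19.7 and 16.2, and the RNase H2 subunit Rnaseh2b 18.1, 17.9 and 14.2. The nuclease Dna2 had 10.7, 11.1 and 6.98 CPM, and Dscc1, of an alternative clamp loader, 3.45, 6.23 and 3.38, so Dscc1 was high in library 2 alone. Of 4 measured chromatin assembly genes 3 were lowest in library 3: Mms22l with 29.1, 30.9 and 23.9 CPM, the histone chaperone Asf1b with 5.18, 6.17 and 4.10, and Chaf1b with 15.4, 16.8 and 14.3. Asf1a was the exception, with 20.3, 22.7 and 22.7 CPM. Of 12 measured E2F, DP and pocket protein genes, 10 were lowest in library 3, or 9 under TMM scaling. The largest by CPM were Tfdp2, a partner of E2F factors, with 51.0, 48.6 and 44.8 CPM, the pocket protein gene Rbl1 with 44.4, 44.1 and 36.8, and Lin54 with 27.8, 30.7 and 21.5. E2f7, a repressor of the family, was highest in library 1, with 7.90, 5.54 and 4.68 CPM.

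Genes that control origin firing and licensing, and genes of mitosis, were highest in library 1 more often than in library 2. By CPM, 38.0% of all measured genes were highest in library 1 and 37.6% in library 2. Under TMM scaling 35.3% and 29.7% were. Of the 11 measured control genes of 25 listed, 8 were highest in library 1 and 10 lowest in library 3, counts that TMM scaling left at 8 and 10. Rif1, which restrains late origins, had 136, 147 and 120 CPM in libraries 1, 2 and 3, Mcm3ap 48.8, 51.9 and 43.5, and Cul4b, a ubiquitin ligase scaffold, 36.6, 30.1 and 30.3. Ccna2, cyclin A2, had 18.9, 17.6 and 10.2 CPM, and Mcmdc2 had 23, 11 and 8 counts. All 41 measured mitosis genes were lowest in library 3 by CPM and 40 under TMM scaling, 28 were highest in library 1 and 13 in library 2. Their median deviation in library 3 was −0.97, beside −0.20 for the replication genes. The highest of them were Smc2, a condensin subunit, with 31.2, 38.8 and 23.9 CPM, Kntc1 with 27.7, 33.1 and 19.6, and Prc1, a spindle midzone protein, with 28.8, 31.1 and 18.7. The largest deviations were those of Cenpf, with 34.4, 26.8 and 9.76 CPM, and Ckap2, with 10.7, 10.7 and 3.59. The lower level of mitosis genes in library 3 was known from earlier results of these data and is no independent support.

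Of 8 measured translesion, repair and mitochondrial polymerase genes, 6 were lowest in library 3 by CPM and 5 under TMM scaling, 4 were highest in library 2 and 3 in library 1. Rev1, a translesion polymerase, had 49.4, 55.5 and 43.2 CPM in libraries 1, 2 and 3, Polrmt, the mitochondrial RNA polymerase, 31.2, 32.7 and 28.2, and Polm, an end-joining polymerase, 21.5, 19.2 and 20.7. Polq, the polymerase of theta-mediated end joining, had 8.27, 8.90 and 4.46 CPM, the lowest level in library 3 relative to the other 2 among them. Poln had 17, 18 and 25 counts.

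**Figure D3:**
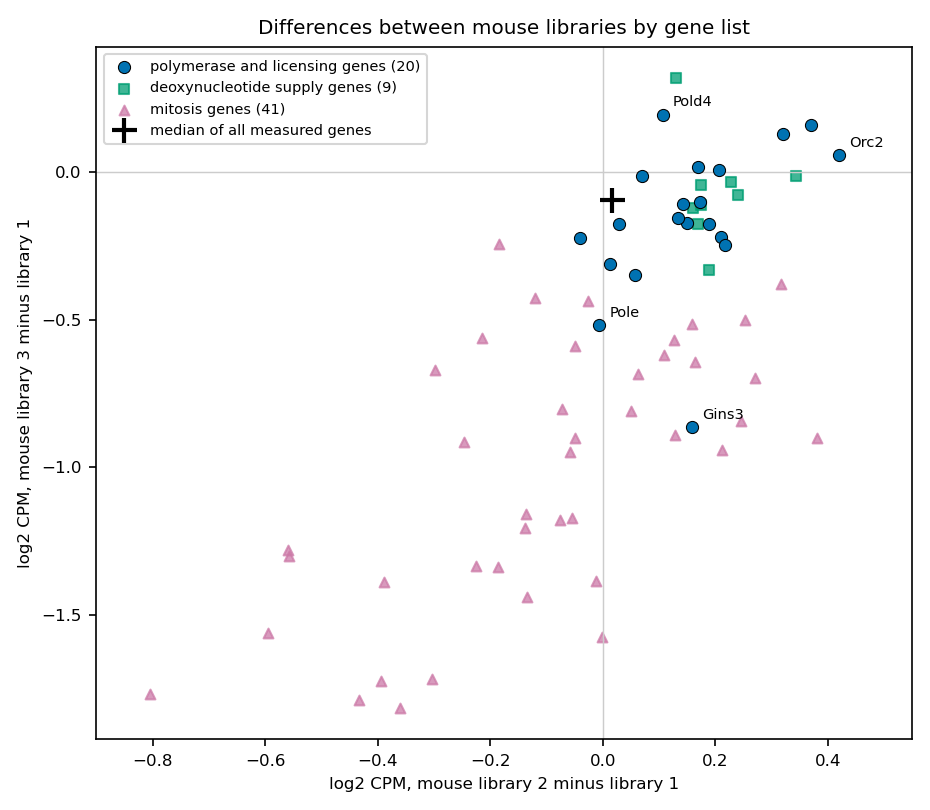
Log2 CPM of library 2 minus library 1 (horizontal) and of library 3 minus library 1 (vertical) for the 20 replication genes (circles), 9 deoxynucleotide supply genes (squares) and 41 mitosis genes (triangles), with the median of all measured genes as a cross. Circles and squares lie mostly to the right of the cross, most triangles lie far below it, and Gins3 is the lowest circle.

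**Figure D4:**
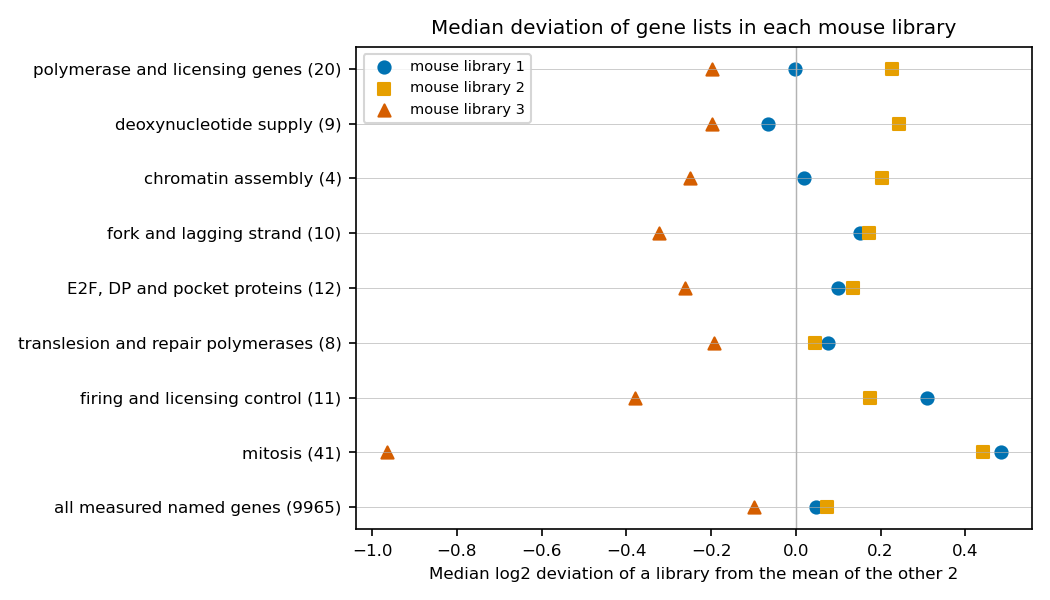
Median log2 deviation of each mouse library from the mean of the other 2, for the replication genes, the 7 pathway lists and all measured genes, with the number of measured genes in brackets. Library 3 (triangles) has the lowest median in every list, from −0.97 for mitosis to −0.098 for all genes, while library 2 (squares) stands above library 1 (circles) in the replication, deoxynucleotide supply and chromatin assembly lists by the widest margins.

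Outside these genes, the 5 genes with the pattern most like the sum of the 20, by the sum of squared differences of centred log2 CPM over the 3 libraries, were Znhit1, Morc4, Cep57, Pou5f2 and Npat. Npat had 38.3, 42.1 and 33.98 CPM in libraries 1, 2 and 3, Cep57 19.9, 21.8 and 17.9, Znhit1 11.3, 12.3 and 10.01, and Morc4 8.38, 9.20 and 7.46. Pou5f2 had 128, 142 and 115 counts. They were taken from the 5573 genes with a mean of at least 100 counts, and each comparison rests on 3 libraries.

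Markers of other cells also differed between the libraries, on few counts for leukocytes. Of 7 leukocyte markers, 3 were measured, all highest in library 3, as were 24.4% of all measured genes. The summed level of these markers was 0.571, 1.31 and 2.72 CPM in libraries 1, 2 and 3. Cd3g had 6, 29 and 37 counts, Lyz2 0, 0 and 59, and Itgax 0, 0 and 5. The hair follicle markers measured, 3 of 7, summed to 29.7, 34.4 and 42.1 CPM, nearly all of it Foxn1. Lgr5 with 36, 59 and 9 counts and Hoxc13 with 35, 51 and 22 were instead lowest in library 3. The 2 measured endothelial markers of 6 summed to 2.65, 2.23 and 1.40 CPM, nearly all of it Flt1. Pecam1, with 10, 14 and 11 counts, was instead lowest in library 1 and highest in library 2. The part of any of these in the replication values was not tested.

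The 20 genes with an entry of their own differed from the 25 without in what the annotation says of their loci. Exons of 5 of the 20 overlapped exons of another annotated gene (25%), and exons of 12 of the 25 did (48%), among them Mcm7, Fen1, Gins2, Cdc45, Pole2 and Rfc2. The median exon length was 4730 bases in the 20 and 3611 bases in the 25, and the median gene span 23752 and 14870 bases. Of the protein-coding genes with a symbol of their own, 66.6% had an entry under their identifier, beside 44.4% of the replication genes. Across the 20, longer genes had higher CPM (Spearman's rho 0.686 over 20 genes that share the 3 libraries), and rho was −0.221 for CPM per kilobase.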

How the data were processed

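RNA of sorted epidermal keratinocytes from 3 mouse libraries was analysed. The authors deposited whole-number counts per gene or assembled locus. Bowtie2, TopHat2, cutadapt and FastQC are the tools, and mm10 the build, in the submitters' processing notes. The sources used here name no counting program or strand setting. A count of 1 was less frequent than a count of 3 in each table (641, 644 and 601 entries against 781, 757 and 788), so the counts may have been derived from another quantity, and counting errors are approximate and cover counting error only. Of 54364 entries per table, 42675 carry an Ensembl identifier, matched to GENCODE M21 (GRCm38).

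Counts were divided by the library total and multiplied by 1000000 (CPM). Log2 values had 0.5 added to each count. Genes whose mean count was 10 or more are called measured. Levels per kilobase used the union of annotated exons. The labels tie no library to an animal; libraries 2 and 3 may share one, while library 1 holds Y-linked RNA that they lack, so the SD may be technical in part. With 1 group, no test was made. The members and lists were chosen with earlier results of these data known. All members are named, and of each list the 3 measured genes with the highest mean CPM and the 2 with the largest deviation in any library. Alternatives were edgeR 4.0.16 TMM factors, DESeq2 1.42.0 size factors, other totals, minimum counts, a pseudocount of 2, the longest transcript as length, each library left out, and, added after seeing the data, protein-coding totals and leaving out genes that overlap or resemble another (bedtools 2.31.1; BLAST+ 2.17.0, at least 95% identity over 200 bases). The computation of deviations was checked on simulated counts. The naked mole-rat tables were not used.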

Additional observations from a re-analysis of the deposited data

How the results depend on the processing

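Of 178 alternative values for 32 results, 159 moved by less than the spread between libraries, 17 moved by more and 2 changed sign. Many of the 159 could not have moved, since leaving out 1 of 3 libraries shifts a mean by less than its SD. The minimum counts removed no gene, so the 159 are not a measure of robustness. The changes of sign were in the median deviation of library 1, −0.0012 as reported, which was 0.011 without genes that overlap or resemble another and ran from −0.15 to 0.16 when a library was left out. With the longest transcript as the length, the median level per kilobase was 6.75 CPM, against 4.34 with the union of exons, and 15 of 100 single-gene values moved, all with that length. Leaving out a library gave a median coefficient of variation of 7.54% to 13.8%, a median deviation of 0.15 to 0.28 in library 2 and of −0.28 to −0.16 in library 3, and a median level per kilobase of 4.18 to 4.70 CPM. Across the scalings the library 3 median ran from −0.20 to −0.086 and that of library 2 from 0.16 to 0.23. Minimum counts did not matter, since the lowest mean count of the 20 genes was 275. No paired analysis was possible because all 3 mouse libraries form 1 group.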
